A study of Mus musculus with 6 samples.

Results

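The luminal and basal lineage transcription factors of the mammary epithelium were compared between *Glis2*+/+ and *Glis2*-/- mice. They are 10 genes out of the 54418 gene identifiers measured, chosen by name for their known roles, with earlier results of these data known: *Gata3*, *Foxa1*, *Elf5*, *Ehf*, *Elf3*, *Grhl2*, *Tfap2c*, *Trp63*, *Sox9* and *Sox10*. All 10 passed the filter on low counts. GLIS2 is a zinc finger transcriptional repressor, and the study asked how its loss alters mammary epithelial cells at puberty. RNA came from mammary cells of 3 *Glis2*+/+ and 3 *Glis2*-/- females, all C57BL/6 and 4 weeks old, with 1 library per mouse and no treatment. The deletion is a germline one, so it was present in every cell of the *Glis2*-/- mice, stroma included. Cells were stained for TER-119, CD31, CD45, CD24 and CD49f before sorting, and the sample labels do not name the gate that was kept.

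The mammary duct has an inner luminal layer and an outer basal layer of contractile myoepithelial and stem cells. GATA3, a zinc finger factor, and FOXA1, a forkhead factor that opens chromatin for the oestrogen receptor, maintain hormone-sensing luminal cells. ELF5, EHF and ELF3 are epithelial members of the ETS family, and ELF5 drives the alveolar fate of luminal progenitors. GRHL2 maintains epithelial adhesion genes, and TFAP2C, an AP-2 factor, acts in luminal growth and differentiation. p63, encoded by *Trp63*, holds the basal keratin program, while SOX9 and SOX10, of the SoxE group, are linked to luminal progenitor and stem-like states.

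*Elf5*, *Ehf* and *Elf3* varied most between mice, so the promoter windows at hand for these ETS genes are shown first. Each holds 250 bases before to 50 bases after an annotated start, 5′ to 3′ on the strand of the gene, and is taken from RefSeq on GRCm38.p6. Windows were at hand for 4 of the 10 genes, *Elf3*, *Elf5*, *Foxa1* and *Gata3*, among 32851 windows in all. *Elf5* has a pair of them, at chr2:103411848-103412147 and chr2:103423818-103424117, both on the plus strand. *Elf3* has 1, at chr1:135258423-135258722 on the minus strand. Capitals mark the single match to any of 6 motif cores searched on both strands, a SOX core.
Elf5 (upstream start): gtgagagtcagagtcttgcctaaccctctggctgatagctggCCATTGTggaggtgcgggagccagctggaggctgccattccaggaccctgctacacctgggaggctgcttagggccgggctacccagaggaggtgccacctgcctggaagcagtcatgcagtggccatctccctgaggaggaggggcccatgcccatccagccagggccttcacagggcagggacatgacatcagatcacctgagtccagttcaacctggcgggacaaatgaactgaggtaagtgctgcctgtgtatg
Elf5 (downstream start): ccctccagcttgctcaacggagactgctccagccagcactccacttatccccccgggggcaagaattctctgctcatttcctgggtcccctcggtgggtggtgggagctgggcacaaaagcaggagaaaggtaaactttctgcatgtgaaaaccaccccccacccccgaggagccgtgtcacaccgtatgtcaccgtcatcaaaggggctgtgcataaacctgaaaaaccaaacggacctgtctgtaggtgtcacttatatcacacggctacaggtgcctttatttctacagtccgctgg
Elf3: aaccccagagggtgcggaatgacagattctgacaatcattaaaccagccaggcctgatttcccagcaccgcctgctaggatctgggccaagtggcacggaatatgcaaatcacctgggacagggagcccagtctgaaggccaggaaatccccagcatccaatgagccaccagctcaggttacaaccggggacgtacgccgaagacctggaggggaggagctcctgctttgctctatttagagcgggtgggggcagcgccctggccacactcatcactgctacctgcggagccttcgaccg

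The cores searched were AGATAA for GATA factors, CCGGAAG for ETS factors, AACCGGTT for GRHL factors, TGTTTAC for forkhead factors, ACAATGG for SOX factors and GCCNNNGGC for AP-2 factors. Among all windows, 11.2%, 8.86%, 0.146%, 3.65%, 3.66% and 16.6% held them, in that order. The upstream *Elf5* window held the SOX core, read as CCATTGT, and neither the downstream window nor that of *Elf3* held any of the 6. The *Foxa1* window, at chr12:57546062-57546361, held 1 forkhead core, and the *Gata3* window, at chr2:9878551-9878850, held 3 AP-2 matches. A match describes only the letters in a window. CpG dinucleotides numbered 3 and 10 in the *Elf5* windows and 12 in that of *Elf3*, beside 26 for *Foxa1* and 22 for *Gata3* and a median of 7 over all windows.

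*Ehf* (ENSMUSG00000012350) and *Elf5* (ENSMUSG00000027186) are neighbours on chromosome 2 of GRCm38. *Ehf* lies at chr2:103263433-103303278 on the minus strand and *Elf5* at chr2:103411688-103450989 on the plus strand, so that they are transcribed away from each other with 108409 bases and 3 annotated genes between them. *Gata3* and *Tfap2c* are also on chromosome 2, at chr2:9857078-9890034 and chr2:172549593-172558622, *Elf3* at chr1:135253575-135258568 and *Foxa1* at chr12:57540628-57546916. *Grhl2* and *Sox10* share chromosome 15, at chr15:37233036-37363569 and chr15:79154908-79165240. *Trp63* lies at chr16:25683763-25892102 and *Sox9* at chr11:112782224-112787760. At its start *Grhl2* overlaps an annotated exon of the antisense transcript Gm16136 (chr15:37231793-37233309). Counts of Gm16136 were 11.2% to 18.1% of those of *Grhl2*. *Gata3* shares exon bases with 9230102O04Rik on its own strand, whose counts were 0.655% to 1.76% of those of *Gata3*. How many reads came from the shared bases was not measured. The library kit keeps the strand of the RNA, but the sources do not say whether the counting used it.

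Levels are given in CPM, which are counts scaled to a common library size by edgeR's TMM method. Total counts lay between 24996524 and 31393917 per library. Counts of the 10 genes ran from 558 for *Elf3* to 17185 for *Sox9*, which puts the counting error of the lowest value of each gene at 4.23% or less. Reads of *Glis2* itself were lower in the knockout but not absent, at 21.7, 23.2 and 19.6 CPM in *Glis2*+/+ mice 1, 2 and 3 and 10.1, 17.0 and 16.3 CPM in *Glis2*-/- mice 1, 2 and 3, and which part of the gene is deleted is not stated in the labels. Genotypes are therefore those of the labels. Luminal keratin *Krt8* (1238 to 1950 CPM) and basal smooth muscle myosin *Myh11* (1795 to 2670 CPM) were abundant in every library. The libraries also held RNA of other cells: 6 fibroblast markers summed to 2293 to 7727 CPM and 6 endothelial markers to 119 to 645 CPM.

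With edgeR's quasi-likelihood test and Benjamini-Hochberg adjustment over all 21236 genes tested, 0 of the 10 lineage factors passed the thresholds of 0.05 for the adjusted p and 0.58 for the size of the log2 fold change. The share of all tested genes called was 0.0%, and the smallest adjusted p among the lineage factors was 0.906. At an unadjusted p under 0.05 stood 2 of the 10, *Tfap2c* and *Trp63*, beside 1130 genes or 5.32% of all tested. DESeq2 called 48 genes and 0 of the lineage factors. The log2 fold change of *Glis2*-/- over *Glis2*+/+ was above 0 for 7 of the 10, beside 51.6% of all genes, with a median of 0.08 against 0.01 over all genes. The median absolute log2 fold change was 0.10 for the lineage factors and 0.21 for all genes, which were not matched to them for expression level. With each of *Glis2*+/+ mice 1 and 3 and *Glis2*-/- mouse 2 left out in turn, the number above 0 was 4. The direction of *Foxa1*, *Elf5*, *Ehf*, *Elf3*, *Grhl2* and *Sox9* turned in at least 2 of the 6 fits that left out 1 mouse. In sorted cells read as a whole, fewer cells of a type and less RNA per cell cannot be told apart.

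For 3 of the 10, *Foxa1*, *Grhl2* and *Sox10*, the whole 95% interval lay within 0.58 of 0 on the log2 scale, as it did for 29.4% of all genes. The intervals of *Elf5*, *Ehf* and *Elf3* spanned at least a log2 change of 0.94 in both directions. Levels in the *Glis2*+/+ mice alone differed by more than the fold change between genotypes for 8 of the 10, and levels in the *Glis2*-/- mice for 9.

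**Figure D1:**
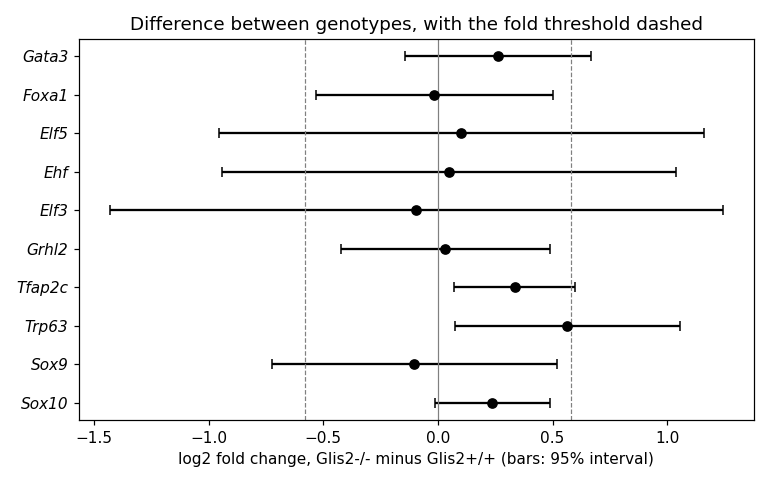
Log2 fold change of each lineage factor, *Glis2*-/- minus *Glis2*+/+, with its 95% interval from edgeR (3 mice per genotype); dashed lines mark 0.58 on either side of 0. The intervals of *Tfap2c* and *Trp63* lie above 0, and those of *Elf5*, *Ehf* and *Elf3* are the widest.

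*Gata3*, which specifies luminal cells, had 173, 229 and 204 CPM in *Glis2*+/+ mice 1, 2 and 3 and 281, 266 and 180.0 CPM in *Glis2*-/- mice 1, 2 and 3. The *Glis2*-/- mice 1 and 2 stood above every *Glis2*+/+ mouse and mouse 3 near the lowest of them, so the genotypes overlapped. Means were 202 ± 27.8 and 242 ± 54.5 CPM (SD, n = 3 each). Between genotypes the log2 fold change was 0.26 with a standard error of 0.18, and edgeR's adjusted p was 0.941. With log2 TPM in limma it was 0.036 and 0.035 for offsets of 1 and 0.1.

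*Foxa1*, the forkhead partner of the oestrogen receptor, had 155, 224 and 165 CPM in the *Glis2*+/+ mice and 211, 207 and 120.1 CPM in the *Glis2*-/- mice, in the same order. Of the *Glis2*-/- mice, 1 and 2 lay inside the *Glis2*+/+ range and 3 below it, and the means of 181 ± 37.2 and 179 ± 51.3 CPM differed by far less than either SD. Its log2 fold change of -0.02 had an interval from -0.53 to 0.50.

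*Elf5*, the regulator of alveolar progenitors, had 31.7, 81.7 and 39.1 CPM in *Glis2*+/+ mice and 54.2, 84.9 and 24.6 CPM in *Glis2*-/- mice. Mouse 2 of each genotype was highest and its level was at least 2.58 times that of the lowest mouse of its genotype. Between genotypes the log2 fold change of 0.10 had a standard error of 0.46, and its interval ran from -0.95 to 1.16. Its direction turned on log2 TPM in limma, to -0.22 with an offset of 1 and -0.26 with an offset of 0.1, and without *Glis2*+/+ mouse 1 or 3 or *Glis2*-/- mouse 2.

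*Ehf*, its neighbour and ETS relative, had 65.8, 199 and 117 CPM in *Glis2*+/+ mice and 145, 184 and 66.8 CPM in *Glis2*-/- mice. The same mice were highest and lowest as for *Elf5*. Its log2 fold change was 0.05 with an interval from -0.94 to 1.04.

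*Elf3*, an ETS factor of differentiating epithelia, had 18.1, 93.9 and 39.6 CPM in *Glis2*+/+ mice and 56.5, 65.6 and 19.9 CPM in *Glis2*-/- mice. Its highest level was 5.19 times the lowest among *Glis2*+/+ mice and 3.30 times among *Glis2*-/- mice, the widest spread of the 10 genes in the first genotype. Its log2 fold change of -0.09 had a standard error of 0.58.

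*Grhl2*, the factor behind epithelial adhesion genes, had 88.3, 151 and 107 CPM in *Glis2*+/+ mice and 129.9, 126 and 98.4 CPM in *Glis2*-/- mice. All *Glis2*-/- values lay inside the *Glis2*+/+ range, and the means were 115 ± 32.5 and 118 ± 17.1 CPM. A log2 fold change of 0.03 was obtained, with an interval from -0.42 to 0.49.

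*Tfap2c* was the only one of the 10 whose genotypes did not overlap. The *Glis2*+/+ mice had 119, 124 and 99.5 CPM, and the *Glis2*-/- mice 133, 148 and 151 CPM. Every *Glis2*-/- mouse stood above every *Glis2*+/+ mouse, and *Glis2*-/- mouse 1 and *Glis2*+/+ mouse 2 were the nearest pair. Of all tested genes, 11.7% had no overlap, 6.23% with *Glis2*-/- above and 5.5% with *Glis2*-/- below, so 1 in 10 is near this background. The means were 114 ± 13.0 and 144 ± 9.68 CPM, the log2 fold change was 0.34 with an interval from 0.07 to 0.60, and the unadjusted edgeR p of 0.019 became 0.906 after adjustment.

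*Trp63*, the basal master regulator, had 185, 121 and 129 CPM in *Glis2*+/+ mice and 204, 166 and 274 CPM in *Glis2*-/- mice. The *Glis2*-/- mice 1 and 3 were above every *Glis2*+/+ mouse, and mouse 2 was below *Glis2*+/+ mouse 1. The means were 145 ± 35.1 and 215 ± 55.2 CPM. Its log2 fold change of 0.56 had an interval from 0.07 to 1.06, and the unadjusted edgeR p of 0.029 became 0.906 after adjustment. On log2 TPM in limma it was 0.24 with an offset of 1 and 0.26 with an offset of 0.1.

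*Sox9*, the SoxE factor of progenitors, had the highest CPM of the 10: 309, 602 and 413 in *Glis2*+/+ mice and 417, 531 and 284 in *Glis2*-/- mice. The genotypes overlapped over most of their range. The log2 fold change of -0.10 had a standard error of 0.27. SOX9 is also the regulator of cartilage. The 3 chondrocyte markers summed to 85.3 to 122 CPM in *Glis2*+/+ and 123 to 153 CPM in *Glis2*-/- mice, with the nearest mice at 121.7 and 122.8 CPM. Most of this sum was *Col9a1*, whose genotypes overlapped, and 2 of the 3 had a log2 fold change above 0 and 1 below. The part of cartilage cells in the *Sox9* values was not tested.

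*Sox10* varied least within *Glis2*+/+ mice, at 139, 132 and 125 CPM, and had 167, 163 and 136 CPM in *Glis2*-/- mice. Only *Glis2*-/- mouse 3 fell inside the *Glis2*+/+ range. The log2 fold change was 0.24 with an interval from -0.01 to 0.49, and the unadjusted edgeR p was 0.062. On log2 TPM in limma it was 0.0022 with an offset of 1 and 0.0016 with an offset of 0.1. SOX10 also marks Schwann cells and melanocytes, whose genes were read beside it. The 5 Schwann cell markers summed to 155 to 354 CPM in *Glis2*+/+ and 134 to 220 CPM in *Glis2*-/- mice. The 6 melanocyte markers summed to 9.40 to 10.8 CPM and 6.58 to 8.08 CPM. The part of these cells in the *Sox10* values was not tested.

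**Figure D2:**
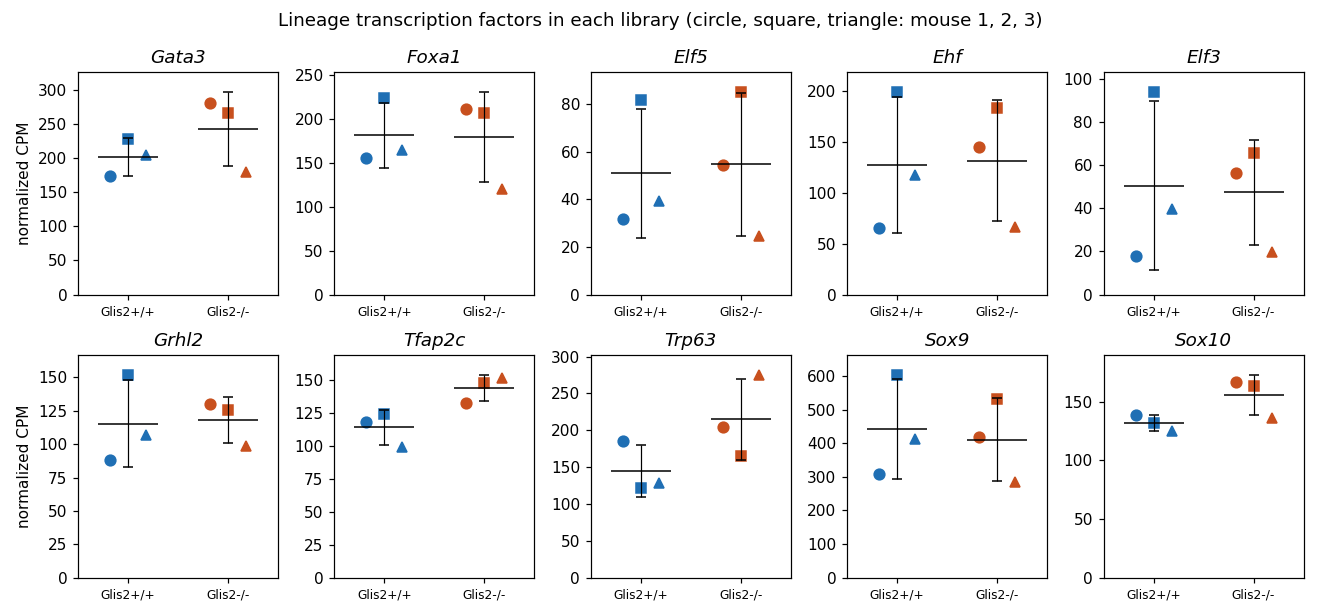
Normalized CPM of each lineage factor by genotype, 1 panel per gene with its own axis from 0; points are mice (circle, square and triangle for mice 1, 2 and 3), horizontal lines are means and bars are SD (n = 3). Only in the *Tfap2c* panel do the points of the genotypes not overlap.

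The mice differed from each other in a shared way, a pattern seen in the values and not sought in advance. For 7 of the 10 genes (*Gata3*, *Foxa1*, *Elf5*, *Ehf*, *Elf3*, *Grhl2* and *Sox9*) *Glis2*+/+ mouse 1 and *Glis2*-/- mouse 3 were the lowest of their genotypes, against 16.0% of all tested genes. The full order, mouse 2 over 3 over 1 in *Glis2*+/+ and 2 over 1 over 3 in *Glis2*-/-, was held by *Elf5*, *Ehf*, *Elf3* and *Sox9*, and by 6.41% of all genes. *Trp63* had exactly the opposite order in both genotypes, as did 6.85% of all genes. *Tfap2c* and *Sox10* had neither.

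Markers of several cell types followed the same mice, those of basal cells only in part. All 10 luminal markers, all 8 hormone-sensing markers tested, all 6 luminal progenitor markers and all 9 tested targets linked to GRHL2 were lowest in *Glis2*+/+ mouse 1 and *Glis2*-/- mouse 3. The luminal markers summed to 3718, 6028 and 5036 CPM in *Glis2*+/+ mice and 5281, 6239 and 3770 CPM in *Glis2*-/- mice. All 6 endothelial markers had the opposite order, summing to 639, 119 and 451 CPM and then 400.3, 181 and 645 CPM. Of 11 basal markers 1 had that opposite order. Highest in *Glis2*+/+ mouse 1 and *Glis2*-/- mouse 3 were 5 of the 11, against 16.4% of all genes. Fibroblast markers summed to 7356, 2293 and 7727 CPM and then 4256, 2585 and 5884 CPM, with mouse 2 lowest in both genotypes. The part of fibroblast and endothelial RNA in the values of the single genes was not tested.

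**Figure D3:**
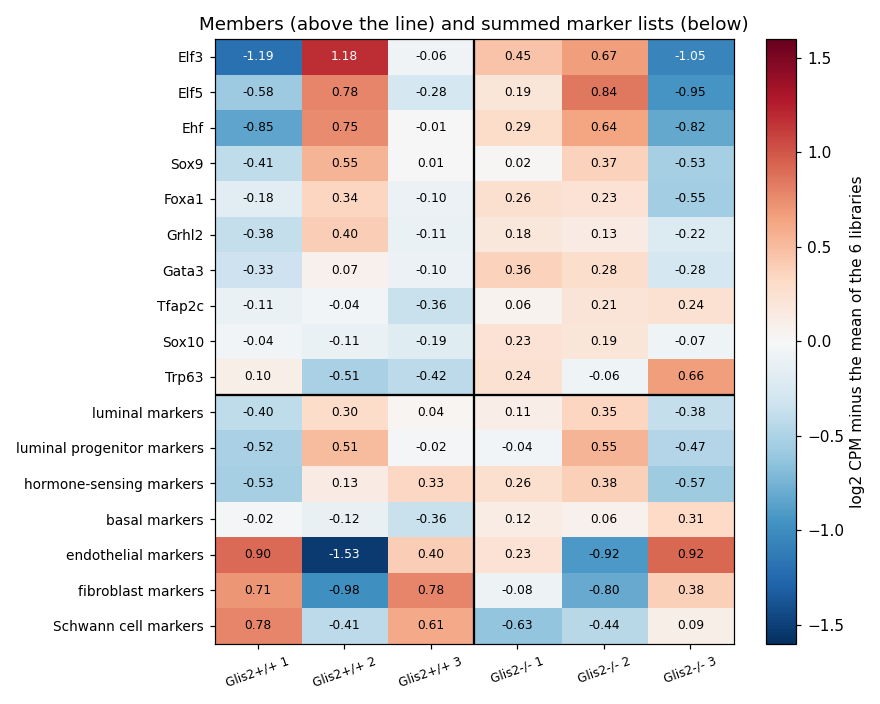
Log2 CPM of each lineage factor (above the line) and of summed marker lists (below it) minus the mean of the 6 libraries, in columns by mouse. *Elf3* runs from -1.19 in *Glis2*+/+ mouse 1 to 1.2 in *Glis2*+/+ mouse 2, within each genotype in the order of the luminal markers, and within each genotype endothelial markers run the other way.

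The ETS genes had a wider spread between mice than the sum of the luminal markers. Among 9926 genes with a mean of at least 10 CPM, 0.534% had a wider spread than *Elf3* in *Glis2*+/+ mice and 1.17% in *Glis2*-/- mice. For *Ehf* the shares were 2.65% and 2.02%, and for *Elf5* 4.00% and 1.03%. At the other end, 83.6% and 53% of these genes had a wider spread than *Sox10*. Divided by the summed luminal markers, the ratio of highest to lowest mouse in *Glis2*+/+ and *Glis2*-/- mice was 1.23 and 1.25 for *Gata3*, 1.28 and 1.25 for *Foxa1*, 1.19 and 1.29 for *Grhl2* and 1.22 and 1.13 for *Sox9*. The same ratio was 1.75 and 2.09 for *Elf5*, 1.87 and 1.66 for *Ehf* and 3.20 and 2.03 for *Elf3*, where the luminal sum itself had 1.62 and 1.66. *Gata3*, *Foxa1*, *Grhl2* and *Sox9* therefore kept a narrower range per unit of luminal signal than the luminal sum itself had, and *Elf5*, *Ehf* and *Elf3* did not. A spread of this size was not particular to the ETS genes: the 6 luminal progenitor markers had a median of 2.74 in *Glis2*+/+ and 3.01 in *Glis2*-/- mice, with 2.81 and 3.43 for the receptor *Kit* and 7.87 and 7.34 for the milk protein gene *Ltf*, and the luminal marker *Muc1* had 2.86 and 4.42.

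The basal markers were read beside *Trp63* and *Tfap2c*. Their sum was 6145, 5723 and 4866 CPM in *Glis2*+/+ mice and 6794, 6523 and 7756 CPM in *Glis2*-/- mice, without overlap, and 10 of 11 had a log2 fold change above 0 (51.6% of all genes) with a median of 0.37 and 0 of 11 called. Of the 4 of 11 without overlap (11.7% of all genes), the contractile genes *Cnn1* (0.60), *Tagln* (0.59) and the oxytocin receptor *Oxtr* (0.44) had log2 fold changes above 0 and the integrin *Itgb4* (-0.19) below 0. Per 1000 CPM of basal markers, *Tfap2c* stood at 19.3, 21.7 and 20.4 CPM in *Glis2*+/+ mice and 19.6, 22.6 and 19.5 CPM in *Glis2*-/- mice, which overlapped. *Trp63* stood at 30.2, 21.2 and 26.5 CPM and then 30.1, 25.4 and 35.4 CPM, also overlapping. The basal sum was itself higher in every *Glis2*-/- mouse, so division by it lowers any rise of these genes. Per 1000 CPM of luminal markers they overlapped as well, *Tfap2c* at 19.8 to 31.9 and 23.7 to 40.2 CPM. *Trp63* stood there at 20.1 to 49.9 and 26.5 to 72.8 CPM. Whether either gene follows basal content was not tested. Immune markers summed to 15.0 to 25.4 CPM in *Glis2*+/+ and 28.4 to 63.7 CPM in *Glis2*-/- mice, with log2 fold changes above 0 for 4 of 7 and below 0 for 3, and their part in the *Trp63* values was not tested. p63 is active in the epidermis as well, whose 4 suprabasal markers summed to 1.49 to 2.91 CPM and 2.64 to 4.92 CPM.

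A fit with the mean log2 level of luminal markers minus that of basal markers as a covariate, added after the values were seen, gave a log2 fold change above 0 for all 10 genes. It was 0.40 for *Gata3*, 0.43 for *Elf5*, 0.48 for *Ehf*, 0.53 for *Elf3* and 0.35 for *Trp63*, and between 0.14 and 0.31 for the others. None was called, and the smallest edgeR adjusted p was 0.469, for *Gata3* and *Trp63*. At an unadjusted edgeR p under 0.05 stood *Gata3*, *Ehf*, *Tfap2c*, *Trp63* and *Sox10*, beside 1747 of all 21236 genes tested. The median log2 fold change over all genes in this fit was 0.01. The sign of *Foxa1*, *Elf3* and *Sox9* differed from that without the covariate.

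Between genes, levels can be compared only per transcript length, for which TPM was used, a share of all transcripts in the library after division by length. *Sox9* had the highest mean of 23.3 TPM, followed by *Gata3* (20.6), *Ehf* (15.4), *Foxa1* (14.6), *Sox10* (13.4), *Grhl2* (13.2), *Trp63* (12.6), *Tfap2c* (11.6), *Elf5* (10.2) and *Elf3* (5.81). Neighbours in this order overlapped across the 6 mice, and *Elf3* was the last of the 10 in every mouse but *Glis2*+/+ mouse 2. *Trp63* ranged widest in rank: with 9.84 TPM it was last in *Glis2*+/+ mouse 2, and with 17.3 TPM first in *Glis2*-/- mouse 3. A single gene, Gm23935, held 83.0% to 85.7% of all TPM, which lowers every other TPM value but leaves ratios within a library as they are. The *Glis2*-/- mean TPM was the higher one for 5 of the 10 genes, and for 6 after rescaling without Gm23935, where that of *Ehf* became the higher one. Its values overlapped between genotypes on either scale.

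**Figure D4:**
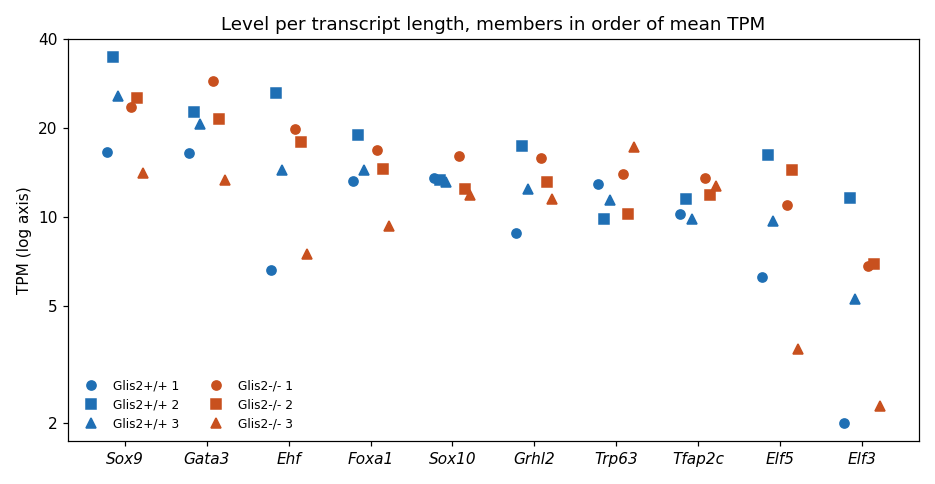
TPM of each lineage factor in the 6 mice on a log axis, ordered by mean TPM from *Sox9* (23.3) to *Elf3* (5.81); blue points are *Glis2*+/+ and orange points *Glis2*-/- mice. *Ehf*, *Elf5* and *Elf3* spread furthest, and *Sox10* and *Tfap2c* least.

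Ratios within a library do not depend on its scaling. *Elf5* to *Ehf* was 0.947, 0.617 and 0.671 in *Glis2*+/+ mice and 0.550, 0.803 and 0.476 in *Glis2*-/- mice, so *Ehf* had the higher TPM in all 6 mice. *Elf3* to *Ehf* varied less, from 0.303 to 0.441, although both genes varied more than most others. *Sox9* to *Sox10* was 1.22, 2.61 and 1.96 and then 1.46, 2.04 and 1.2, above 1 in every mouse.

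The balance of the luminal forkhead factor and the alveolar ETS factor varied between mice. *Foxa1* to *Elf5* was 2.11, 1.17 and 1.5 in *Glis2*+/+ mice and 1.53, 1.00 and 2.60 in *Glis2*-/- mice, highest where both genes were low. *Trp63* to *Grhl2*, a basal over an epithelial factor, was 1.47, 0.565 and 0.914 and then 0.886, 0.781 and 1.5, above 1 only in *Glis2*+/+ mouse 1 and *Glis2*-/- mouse 3. *Gata3* to *Foxa1*, a ratio added after the values were seen, was 1.24, 1.2 and 1.43 in *Glis2*+/+ mice and 1.72, 1.49 and 1.43 in *Glis2*-/- mice. It was the only 1 of 7 ratios without overlap, beside 11.7% of all single genes, and its nearest mice were close, at 1.431 and 1.433. In CPM the same ratio was 1.12, 1.02 and 1.24 and then 1.33, 1.29 and 1.5.

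**Figure D5:**
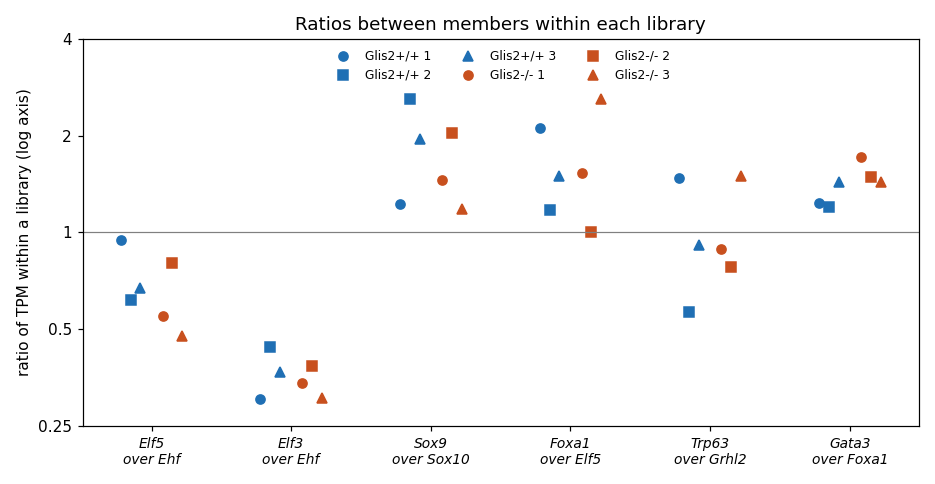
Ratios of TPM between lineage factors within each mouse, on a log axis with a line at 1; blue points are *Glis2*+/+ and orange points *Glis2*-/- mice. *Elf5* and *Elf3* stay below *Ehf* in all 6 mice, *Sox9* stays above *Sox10*, and *Trp63* over *Grhl2* lies on both sides of 1.

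Other lineage factors were read as lists. Of 17 other luminal factors 13 had a log2 fold change above 0 and 4 below, with a median of 0.14 and 0 called. The only one at an unadjusted p under 0.05 was *Klf5*, a Kruppel-like factor, whose log2 fold change was -0.39 (edgeR, adjusted p = 0.906). *Glis2*+/+ mouse 1 and *Glis2*-/- mouse 3 were lowest for 12 of the 17 (16.0% of all genes), and 0 of 17 had no overlap between genotypes (11.7% of all genes). Of 6 other basal factors 5 were above 0 and 1 below, with a median of 0.17. *Foxp1*, a forkhead factor of basal stem cells, was the only one without overlap, at 282 to 284 CPM in *Glis2*+/+ and 298 to 327 CPM in *Glis2*-/- mice. The order opposite to the luminal one, as in *Trp63*, was held by 4 of these 6, beside 6.85% of all genes. It was held by only 1 of 11 basal markers and 2 of 10 genes linked to p63, and by all 6 endothelial markers.

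The relatives of the 10 genes within their families numbered 20, of which 15 were tested, 11 above 0 and 4 below with a median of 0.15. The highest relative of each family reached 1.29 TPM for *Gata2*, 0.071 for *Foxa3*, 11.9 for *Elf2*, 3.90 for *Grhl1*, 10.5 for *Tfap2b*, 6.26 for *Trp53* and 2.61 for *Sox8*. *Gata2*, *Foxa3*, *Grhl1*, *Trp53* and *Sox8* thus stood below the lineage factors of their own families, and *Foxa2* had 0 counts in every library. *Elf2* and *Tfap2b* lay near the levels of *Elf5* and *Tfap2c*. *Sox8*, the remaining SoxE gene, had 18.9, 8.0 and 10.4 CPM in *Glis2*+/+ mice and 22, 23.8 and 29.7 CPM in *Glis2*-/- mice, without overlap. Its log2 fold change of 1.02 had a standard error of 0.31, the unadjusted edgeR p was 0.010 and the adjusted p 0.906.

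Genes linked to p63 and GRHL2 in the literature were read beside the factors. Of 10 genes linked to p63, 9 had a log2 fold change above 0 (51.6% of all genes) and 2 were without overlap (11.7% of all genes), with a median of 0.21 and 0 called. *Dst*, which anchors keratin to hemidesmosomes, was higher in every *Glis2*-/- mouse (3112 to 3187 CPM against 2499 to 2914), and *Itgb4*, the integrin of the same structure, was lower in every *Glis2*-/- mouse (189 to 189.9 CPM against 198 to 235). Of 9 genes linked to GRHL2, 6 were above 0 and 3 below with a median of 0.06, and 0 were without overlap, beside the same shares of all genes. The adhesion genes *Epcam* and *Cldn4* stand in both the GRHL2 and the luminal list, and *Krt5*, *Krt14* and *Itgb4* in both the p63 and the basal list.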

How the data were processed

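RNA of sorted mammary cells from 3 *Glis2*+/+ and 3 *Glis2*-/- mice was sequenced from total RNA after removal of ribosomal fragments. The authors estimated counts per gene with Salmon (1.2.1) on an Ensembl transcriptome of mm10, using the genome as decoy, and summed them with tximport. The deposited estimated counts are integers without normalization, and the deposited log2 values are those of TPM with 1 added. Of 54418 gene identifiers, 54166 were matched to GENCODE (GRCm38). The log2 values were turned back into TPM only for levels and ratios between genes.

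In R 4.3.3, counts were filtered (filterByExpr), scaled (TMM) and compared by the quasi-likelihood test of edgeR 4.0.16 over 21236 genes, with Benjamini-Hochberg adjustment over all of them. Thresholds for a call were 0.05 for the adjusted p and 0.58 for the size of the log2 fold change. The scripts were tested on simulated data. The 10 genes and all gene lists were chosen with earlier results of these data known. Named beside them are genes of a list without overlap between genotypes (up to 4 per list by size of change), the highest gene of each cell type list and the highest relative of each family; other genes were named after their values were seen. Some results that this rule selects are left out here. Alternatives were DESeq2 (1.42.0), its size factors in edgeR, no filter, at least 10 counts in every library, limma (3.58.1) on log2 TPM with 1 or 0.1 added, omission of single mice, and the mouse number as a replicate block. A marker covariate was added after the values were seen. No library copied another, with a chi-square per degree of freedom of at least 20.5 between libraries. Promoter windows came from RefSeq. Proteins were not analysed here.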

Additional observations from a re-analysis of the deposited data

How the results depend on the processing

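None of the 10 lineage factors was called in any of the 14 alternatives, and the smallest adjusted p among them was 0.349. *Gata3*, *Tfap2c*, *Trp63* and *Sox10* kept their direction in all 14, and 117 of 140 single fits kept the direction of the reported one. The log2 fold change of *Sox10* fell to 0.002 and that of *Gata3* to 0.03 at their lowest. For all genes, where the reported test called 0, DESeq2 called 48, edgeR without the filter 40 and limma on log2(TPM + 0.1) 1, the gene Gm27834, while the other alternatives called 0. On log2 TPM, *Elf5* had a log2 fold change of -0.22 with an offset of 1 and -0.26 with an offset of 0.1, which also moved the median of all genes to -0.14. With the marker covariate, the sign of *Foxa1* (0.15), *Elf3* (0.53) and *Sox9* (0.14) turned. For these shifts the cause was not tested.

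Leaving out 1 mouse at a time gave 0 calls each time, and between 4 and 10 of the 10 genes with a log2 fold change above 0, against 7 in the reported fit. The range of log2 fold changes was -0.15 to 0.19 for *Foxa1*, -0.38 to 0.63 for *Elf5*, -0.29 to 0.53 for *Ehf*, -0.52 to 0.72 for *Elf3*, -0.15 to 0.28 for *Grhl2* and -0.34 to 0.19 for *Sox9*, so that the direction of these 6 rests on single mice. It turned without *Glis2*+/+ mouse 2 or *Glis2*-/- mouse 3 for *Foxa1*, *Elf3* and *Sox9*, without *Glis2*+/+ mouse 1 or 3 or *Glis2*-/- mouse 2 for *Elf5*, and without any of these 3 or *Glis2*-/- mouse 1 for *Ehf* and *Grhl2*. *Trp63*, at 0.24 and 0.26 on log2 TPM, ranged from 0.33 to 0.76 and *Tfap2c* from 0.24 to 0.40. The range was 0.14 to 0.42 for *Gata3* and 0.18 to 0.31 for *Sox10*.

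Mice with the same number did not deviate together (correlations of -0.02, 0.17 and 0.02 across genes), so the numbers were not taken to pair them. A fit with the replicate block called 0 genes and 0 lineage factors, had 8 of the 10 above 0, and turned the log2 fold change of *Elf3* to 0.0063. The biological coefficient of variation over all genes was 37.4%, and the counting error of the lowest value of each lineage factor was 4.23% or less.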

Other observations

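Several marker genes outside the lineage factors also separated the genotypes, each with an adjusted edgeR p of 0.906. *Mfge8*, the milk fat globule protein and the highest of the luminal progenitor markers, had 568, 658 and 593 CPM in *Glis2*+/+ mice and 712, 908 and 683 CPM in *Glis2*-/- mice, while the 6 markers of that list had a median log2 fold change of -0.14. The pan-leukocyte gene *Ptprc* had 7.98 to 11.0 CPM in *Glis2*+/+ and 14.5 to 38.7 CPM in *Glis2*-/- mice. The lysosomal gene *Laptm5*, at 80 to 395 counts per library, had a log2 fold change of 1.38. Of the 7 immune markers 3 went the other way, the macrophage gene *Adgre1* at -1.56 (unadjusted edgeR p of 0.043), *Tyrobp* at -0.48 and *Cd68* at -0.19. The cartilage collagen *Col2a1* had a log2 fold change of 1.94 and the suprabasal keratin *Krt10* one of 1.02, both from low counts.

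Other leading markers overlapped between genotypes. The prolactin receptor *Prlr*, highest of the hormone-sensing markers, had 569, 979 and 1002 CPM in *Glis2*+/+ mice and 1015, 1129 and 478 CPM in *Glis2*-/- mice, lowest in the same mice as *Gata3* and *Foxa1*. The endothelial cadherin *Cdh5* had 225, 35.9 and 164 CPM and then 122, 51.5 and 213 CPM, and the collagen *Col3a1* had 1079 to 3943 CPM and 1277 to 2943 CPM. *Col9a1*, the highest cartilage marker, had 83.2 to 113 CPM and 110.3 to 126 CPM, and *Mitf*, the highest melanocyte marker, 4.51 to 9.0 CPM over all mice. Adipocyte markers, led by *Plin1*, were low, with sums of 5.99 to 19.6 CPM and 4.84 to 7.41 CPM. Of the 4 genes in this list only *Adipoq* did not overlap, beside 11.7% of all genes, and it was lower in every *Glis2*-/- mouse.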
